A study of Homo sapiens with 8 samples.

Results

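BRG1 and Flag-tagged actin were mapped by CUT&RUN in control cells of HCT-116, a human colorectal carcinoma line, and the 2 maps are set side by side here gene by gene and by location. CUT&RUN tethers a nuclease to an antibody bound in opened cells, and the short DNA fragments it releases near the bound protein are sequenced. The 2 libraries are labelled BRG1 in control cells and Flag-actin in control cells, and both carry the genotype label SETD3 CT Cells, the control to knockouts of SETD3, the histidine methyltransferase of actin. The Flag antibody was directed against tagged wild type actin, and the labels do not say from which promoter or at what level it was made. Each antibody arm also had a library of control cells made with IgG, an antibody with no chosen target, and the one of the Flag arm carries the word Empty in its title, without saying if those cells held the tagged actin. There was 1 library a side, so every comparison below is a description with no test, and the exact (Clopper-Pearson) 95% binomial intervals cover counting error only. The regions compared were 33596 BRG1 peaks and 25460 Flag-actin peaks, 59056 of the 263613 peaks in the lists of the 8 libraries. The compared peaks are those of chromosomes 1 to 22 and X that overlapped no peak of either IgG list by 1 bp. The lists have the layout of SEACR, a caller that joins covered bases into blocks and keeps the strongest ones, so a number of peaks does not measure the amount bound.

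BRG1, encoded by SMARCA4, is an ATPase of the SWI/SNF remodelling complexes, which slide and evict nucleosomes and are known at promoters and enhancers. Nuclear actin is a subunit of these complexes and of the INO80, SRCAP and TIP60 complexes, and it has also been linked to RNA polymerases.

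The maps differed in where they met a gene. BRG1 lay at gene starts, mostly just before them, and Flag-actin lay at fewer starts, mostly just after them, and at more gene stops than BRG1. Of the 19974 protein-coding genes, 5160 had BRG1 alone within 1 kb of either annotated end (25.8%), 1871 had Flag-actin alone (9.37%) and 1059 had both (5.3%), which left 11884 with neither. As a share of each map, 17.03% of the 6219 genes with BRG1 also held Flag-actin (interval 16.1 to 18.0), and 36.1% of the 2930 genes with Flag-actin also held BRG1 (34.4 to 37.9). Over all genes the shares with any BRG1 and any Flag-actin at an end were 31.1% and 14.7%.

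The promoters under some of the strongest peaks of each class show what sequence the maps covered. They are RefSeq promoters of GRCh38.p14, printed 5′ to 3′ along the gene from 250 bases before its start to 50 bases after it, with every CpG dinucleotide in capitals. SP1, the transcription factor of GC boxes (chr12:53379926-53380225, plus strand, 17 CpGs, 265 bases under its BRG1 peak), and S100A2, an epithelial calcium-binding protein (chr1:153565795-153566094, minus strand, 5 CpGs, 284 bases under its BRG1 peak), had BRG1 alone.
SP1: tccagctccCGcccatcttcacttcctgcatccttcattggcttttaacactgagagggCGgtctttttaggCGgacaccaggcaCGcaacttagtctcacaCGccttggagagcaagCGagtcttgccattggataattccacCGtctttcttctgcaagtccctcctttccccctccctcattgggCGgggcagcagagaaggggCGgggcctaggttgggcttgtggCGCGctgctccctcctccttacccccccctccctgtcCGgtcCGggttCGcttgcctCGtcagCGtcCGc
S100A2: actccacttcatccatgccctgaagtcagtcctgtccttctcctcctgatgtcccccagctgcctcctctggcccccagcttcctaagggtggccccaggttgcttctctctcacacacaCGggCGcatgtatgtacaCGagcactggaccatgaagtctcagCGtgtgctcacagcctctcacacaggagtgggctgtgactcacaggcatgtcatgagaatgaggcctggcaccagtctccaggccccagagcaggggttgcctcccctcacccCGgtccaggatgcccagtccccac
ZNF717, a zinc finger gene (chr3:75785500-75785799, minus strand, 14 CpGs, 201 bases under its Flag-actin peak), and PTPRN, a secretory granule protein gene of neuroendocrine cells (chr2:219309352-219309651, minus strand, 25 CpGs, 79 bases under its Flag-actin peak), had Flag-actin alone.
ZNF717: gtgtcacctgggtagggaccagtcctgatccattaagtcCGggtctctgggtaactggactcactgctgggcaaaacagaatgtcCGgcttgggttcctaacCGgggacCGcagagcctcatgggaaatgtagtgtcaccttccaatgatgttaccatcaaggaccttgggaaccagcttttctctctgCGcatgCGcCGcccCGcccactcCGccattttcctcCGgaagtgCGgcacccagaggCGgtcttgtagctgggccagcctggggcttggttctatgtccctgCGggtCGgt
PTPRN: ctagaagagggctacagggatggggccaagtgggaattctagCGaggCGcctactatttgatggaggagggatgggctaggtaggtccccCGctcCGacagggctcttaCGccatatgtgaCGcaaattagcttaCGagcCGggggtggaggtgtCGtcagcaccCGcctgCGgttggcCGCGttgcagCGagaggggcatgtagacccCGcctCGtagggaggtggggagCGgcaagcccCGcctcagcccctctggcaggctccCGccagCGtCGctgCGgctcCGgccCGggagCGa
IQGAP1, an actin-binding scaffold (chr15:90387992-90388291, plus strand, 31 CpGs), and RPL13, a protein of the large ribosomal subunit (chr16:89560407-89560706, plus strand, 37 CpGs), had a BRG1 and a Flag-actin peak that overlapped each other.
IQGAP1: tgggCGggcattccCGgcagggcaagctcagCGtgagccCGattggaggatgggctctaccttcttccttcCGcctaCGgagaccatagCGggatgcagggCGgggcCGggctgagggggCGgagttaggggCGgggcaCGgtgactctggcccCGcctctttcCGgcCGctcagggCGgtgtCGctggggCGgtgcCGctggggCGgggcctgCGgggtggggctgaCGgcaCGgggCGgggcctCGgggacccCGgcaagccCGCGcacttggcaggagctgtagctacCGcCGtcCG
RPL13: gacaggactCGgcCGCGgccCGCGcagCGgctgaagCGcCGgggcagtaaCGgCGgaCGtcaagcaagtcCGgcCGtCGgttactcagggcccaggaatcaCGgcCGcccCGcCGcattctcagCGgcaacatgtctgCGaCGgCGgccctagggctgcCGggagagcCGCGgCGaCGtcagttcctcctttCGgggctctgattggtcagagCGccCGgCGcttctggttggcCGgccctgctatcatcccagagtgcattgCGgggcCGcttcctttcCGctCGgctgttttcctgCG
In IQGAP1 the BRG1 peak covered 189 of these 300 bases and the Flag-actin peak 90, and in RPL13 the BRG1 peak covered 246 and the Flag-actin peak all 300. The ratio of observed to expected CpGs, which is near 1 where CpGs have not been depleted, was 0.64 for SP1, 0.19 for S100A2, 0.54 for ZNF717, 0.77 for PTPRN, 0.78 for IQGAP1 and 1.04 for RPL13.

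These single promoters do not stand for their classes, so the ratio was taken over all 15812 protein-coding genes with a promoter in the RefSeq table. Promoters with a ratio over 0.6 made up 84.6% of the 4272 with BRG1 alone at a gene end (interval 83.5 to 85.6) and 63.5% of the 1378 with Flag-actin alone (60.9 to 66.0). They made up 83.4% of the 812 with both (80.6 to 85.9), 55.95% of the 9350 with neither (54.9 to 57.0) and 65.75% of all promoters. GC content did not follow the same order. Its median was 64.7% with BRG1 alone, 66.0% with Flag-actin alone, 68.5% with both and 60% with neither. The GC box GGGCGG, searched on both strands as were the other motifs, was in 71.8% of promoters with BRG1 alone, 63.3% with Flag-actin alone, 76.1% with both and 58.5% of all. The TATA motif TATAAA was in 5.69%, 8.13%, 5.54% and 9.64% of these sets in the same order, the AP-1 motif TGANTCA in 4.40%, 5.225%, 3.94% and 5.755%, and the E-box CACGTG in 9.74%, 9.51%, 10.5% and 8.87%.

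The strand of these genes separates starts from stops. BRG1 lay within 1 kb of the start of 4659 of the 15812 genes (29.5%, interval 28.8 to 30.2) and of the stop of 769 (4.86%, 4.53 to 5.21). Flag-actin lay at the start of 1405 (8.89%, 8.45 to 9.34) and at the stop of 1025 (6.48%, 6.10 to 6.88). Flag-actin therefore held more stops than BRG1 did, although it held fewer starts. The IgG lists showed no such lean, with 2.296% of starts and 2.20% of stops in the BRG1 arm, and 2.296% and 2.055% in the Flag arm.

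The position relative to the start differed as well. Centres were counted gene by gene, so a centre near several starts or stops counted for each, and the intervals treat these counts as separate. Of 5632 BRG1 peak centres counted within 1 kb of a start, 62.8% lay before it (interval 61.5 to 64.0), with a median of -67 bp. Of 1407 Flag-actin peak centres, 34.5% lay before the start (32.0 to 37.0), and the median was 232 bp after it. In the 500 bp before the start there were 192.5 BRG1 and 17.8 Flag-actin peak centres per 1000 genes, and in the 500 bp after it 89.6 and 33.9. Between 4.5 and 5 kb before the start the counts were close, at 8.92 for BRG1 and 8.22 for Flag-actin. Around the stop, 40.65% of 802 BRG1 centres (37.2 to 44.1) and 55.85% of 983 Flag-actin centres (52.7 to 59.0) lay before it, which is inside the gene.

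**Figure D1:**
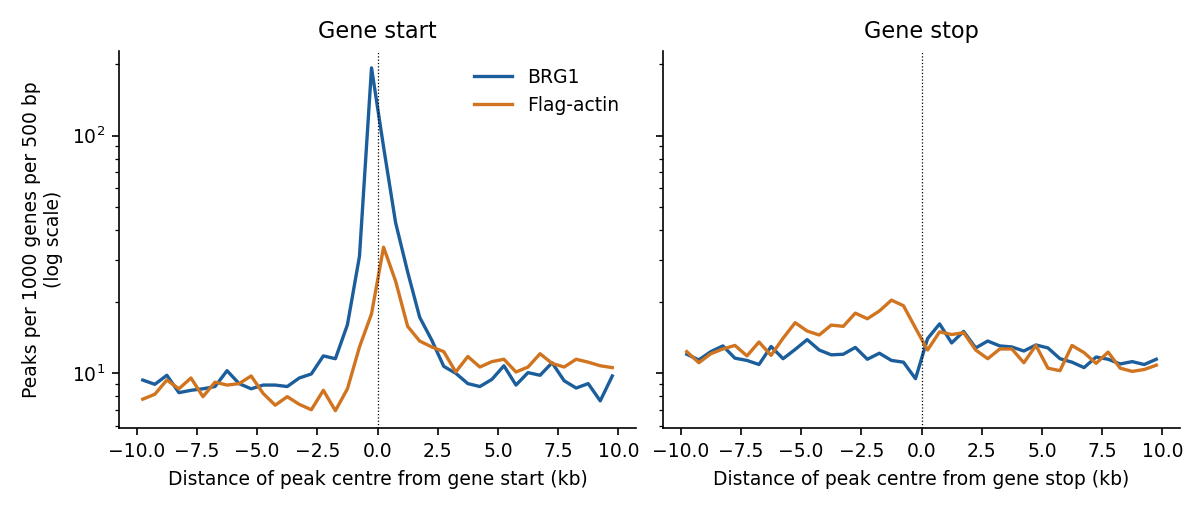
Peak centres per 1000 genes in steps of 500 bp (y axis, log scale) against the distance from the gene start (left) or gene stop (right) in kb, with negative distances before the start or stop along the gene, for 15812 genes. BRG1 (blue) reaches 192.5 just before the start, whereas Flag-actin (orange) reaches 33.9 just after it and reaches 20.3 inside genes before the stop, where BRG1 stands at 11.3.

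Over all peaks, 20.6% of BRG1 peaks (interval 20.2 to 21.0) and 12.2% of Flag-actin peaks (11.8 to 12.6) lay at a gene end, 44.8% and 55.7% lay inside genes away from their ends, and 34.6% and 32.15% outside genes. Gene ends make up 2.395% of the sequence of these chromosomes and gene bodies 40.2%. With windows of 3 kb the gap at gene ends narrowed to 28.2% for BRG1 and 23.4% for Flag-actin. BRG1 peaks were wider at gene ends, with a median of 260 bp against 210 bp in gene bodies and 190 bp outside genes, and they ranked higher by total signal there, at the 63.3 percentile of their list in the median. Flag-actin peaks varied less by place, with median widths of 300, 280 and 270 bp and median percentiles of 56.4, 51.1 and 48.1. Percentiles rank the total signal of a peak within its own list, with 100 as the strongest.

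After the IgG filter few sites were common to both maps. Of the BRG1 peaks 1284 overlapped a Flag-actin peak by at least 1 bp (3.82%, interval 3.62 to 4.03), and of the Flag-actin peaks 1263 overlapped a BRG1 peak (4.96%, 4.70 to 5.24). Before the filter 26.3% of BRG1 and 35.9% of Flag-actin peaks overlapped the other map, and of the peaks that the filter dropped 65.05% and 95.05% did. The BRG1 peaks covered 0.266% of the sequence and the Flag-actin peaks 0.243%. The nearest Flag-actin peak lay 30.9 kb from a BRG1 peak in the median, and the nearest BRG1 peak 13.5 kb from a Flag-actin peak. Within 10 kb there was a Flag-actin peak for 30.1% of BRG1 peaks and a BRG1 peak for 43.0% of Flag-actin peaks. Peaks that were common to both maps were narrow more often: 17.1% of such BRG1 peaks were at most 50 bp wide against 3.14% of the other BRG1 peaks, and 14.2% of such Flag-actin peaks against 1.02% of the others. Before the IgG filter 27.6% of BRG1 and 19.8% of Flag-actin peaks were that narrow. The part that narrow peaks or background play in the common sites was not tested.

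The share of peaks common to both maps was higher in the strongest Flag-actin decile and not in the strongest BRG1 decile. Over the 10 deciles of BRG1 total signal the share with a Flag-actin peak ran between 2.70% and 4.71%, with 2.92% in the strongest decile. For Flag-actin it was 9.52% in the strongest decile (interval 8.41 to 10.7) and between 3.42% and 5.93% in the 9 others. Even at genes that held both, the peaks mostly lay apart: at 275 of the 1059 genes (26.0%) a BRG1 and a Flag-actin gene-end peak overlapped. Of the 812 such genes with a known strand, 447 had both at the start, 265 had BRG1 at the start and Flag-actin at the stop alone, 58 had BRG1 at the stop alone and Flag-actin at the start, and 42 had both at the stop alone.

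The strongest gene-end peaks with BRG1 and no Flag-actin over the gene, of 3637 such genes, lay at LOC124904075 and at S100A2 (chromosome 1, 153565811 to 153567250, total signal 49045, 99.94 percentile). BHLHE40, a repressor gene of the circadian clock, followed with 8 BRG1 peaks over its 5.89 kb and 1 kb around it, the strongest beyond its stop (chromosome 3, 4985821 to 4987360, 99.92 percentile). A single peak covered the facing ends of RRAS, a small GTPase gene, and SCAF1 (chromosome 19, 49640071 to 49640840, 99.90 percentile). SP1 (chromosome 12, 53379361 to 53380190, 99.78 percentile) and RRM2B, the p53-inducible ribonucleotide reductase subunit (chromosome 8, 102239131 to 102239560, 99.73 percentile), came next. The last of the 10 were ABHD10, a mitochondrial thioesterase gene, CHRAC1, a histone-fold subunit of a nucleosome-sliding complex, and SLC35B1, a nucleotide transporter gene of the endoplasmic reticulum, with percentiles of 99.64, 99.57 and 99.54.

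Genes with Flag-actin and no BRG1 over the gene numbered 1218, and CSH2 had the strongest peak. CSH2, a placental lactogen gene (chromosome 17, 63872041 to 63872210, total signal 309683, 99.90 percentile), belongs to a cluster of near-identical copies, so its reads cannot be placed with certainty. KIF19, a kinesin gene, held 8 Flag-actin peaks (the strongest on chromosome 17, 74325641 to 74326130, 99.77 percentile), and CYP11B2, the aldosterone synthase gene of the adrenal cortex, held 4 (the strongest on chromosome 8, 142917161 to 142917900, 99.77 percentile). SAMD14 held 5, and CERS1, a ceramide synthase gene, and GDF1, a growth factor gene on the same transcript, shared 6, each with 99.74 as the highest percentile. LOC124905153, SYPL2, FOXC2, which encodes a transcription factor of lymphatic and mesenchymal development, and ZNF717 followed, at percentiles between 99.17 and 99.44.

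The 10 genes with the highest-ranked overlapping pairs were led by IQGAP1, where a BRG1 peak of the 94.17 percentile (chromosome 15, 90387911 to 90388180) overlapped a Flag-actin peak of the 99.95 percentile (90388061 to 90388150). This Flag-actin peak held a total signal of 672412 over only 90 bases, against 73448 for the Flag-actin peak at RPL13. The source of so high a signal in a narrow peak was not tested. At GPHN, which encodes the receptor scaffold gephyrin, the pair lay at the start (chromosome 14, BRG1 66507551 to 66508230, Flag-actin 66508171 to 66508430) at percentiles of 95.87 and 97.87. RPL13 had 89.66 for BRG1 and 99.08 for Flag-actin, and SRSF1, a splicing factor gene, had 94.56 and 92.13. The others were PSCA, the divergent pair DHX32 and FANK1, which share both peaks, DHX40, KRT16 and CDC42EP4. Over the 10 genes the percentiles ran between 87.52 and 95.87 for BRG1 and between 92.13 and 99.95 for Flag-actin.

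Groups of genes split between the maps, counted here by their gene-end peaks. Of all protein-coding genes, 25.8% held BRG1 alone, 9.37% Flag-actin alone and 5.3% both, or 31.1% any BRG1 and 14.7% any Flag-actin. The immediate early and AP-1 genes, which respond first to growth signals, held BRG1 alone at 24 of 30 genes, Flag-actin alone at 0 and both at 1, ZFP36, an mRNA decay factor gene. MYC, the growth-promoting transcription factor gene (99.26 percentile, 7 BRG1 peaks over the gene and 1 kb around it and 0 Flag-actin peaks), DUSP6, the phosphatase of ERK (98.54), EGR1, a zinc finger factor gene (97.25), and IER2 (96.22) led them. Of 26 p53 targets, 15 held BRG1 alone, 1 Flag-actin alone and 1 both, with RRM2B, TP53I3, the kinase gene PLK3 and the phosphatase gene PPM1D at the top. Aminoacyl-tRNA synthetases, which charge tRNAs, held BRG1 alone at 10 of 22 genes, led by HARS1 (92.63) and AARS1 (85.68), and Flag-actin at 0, which allows a share of up to 13.6% (3 counts).

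Other genes of protein synthesis leaned the same way. Large ribosomal subunit genes had BRG1 alone at 21 of 47, Flag-actin alone at 5 and both at 4, with RPL7, RPL41, RPL21 and RPL17 the strongest with BRG1 alone, RPL6 and RPLP0 with Flag-actin alone, and RPL13 and RPL18 with both. Small ribosomal subunit genes had 13 of 32 with BRG1 alone, 1 with Flag-actin alone, RPS21, and 3 with both, led by RPS27A. Mitochondrial ribosomal protein genes had 35 of 77, 7 and 4, and initiation and elongation factors 18 of 48, 3 and 5. EEF1G, EIF5B and EEF1A1 held BRG1 alone, and EIF3G, EEF2 and EIF4EBP2 Flag-actin alone. The share with any BRG1 was between 45.5% and 53.2% over these 5 lists against 31.1% of all genes, and the share with any Flag-actin between 0% and 19.15% against 14.7%.

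Genes of adhesion and of actin regulation held BRG1 at 50% to 54.1% of each list against 31.1% of all genes, and Flag-actin at 13.2% to 19.7% against 14.7%. Integrin and focal adhesion genes had BRG1 alone at 17 of 38, Flag-actin alone at 3 and both at 2. ITGB1, the common beta subunit (97.97 percentile), and VCL, which encodes vinculin (97.92), were among the first, and ITGB4, the hemidesmosome integrin gene, and ACTN4 held both. Epithelial junction genes had 17 of 37, 3 and 3, with CDH1, the E-cadherin gene, among those with both: its BRG1 peak (chromosome 16, 68737101 to 68737350) and its Flag-actin peak (68737581 to 68738060) did not overlap. Actins and actin regulators had 23 of 66 with BRG1 alone, 3 with Flag-actin alone, which were ACTA1, CORO1A and ARPC5, and 10 with both. MYH9, the non-muscle myosin gene, led those with BRG1 alone (99.70), and IQGAP1, EZR, ACTG1 and CORO1B led those with both. Extracellular matrix and laminin genes differed from these lists: 32.65% of the 49 held BRG1, near the share of all genes, and 28.6% held Flag-actin. BRG1 lay alone at 11, led by LAMB3 (98.31), Flag-actin alone at 9, led by the collagen gene COL6A1 (95.52), and both at 5, led by COL1A1. The larger BRG1 count of the matrix list held in 2 of 4 alternatives.

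The genes of the actin-containing remodellers held BRG1 at 42.9% of SWI/SNF subunits and 46.9% of INO80, SRCAP and TIP60 subunits, against 31.1% of all genes, and Flag-actin at 17.9% and 12.5%, against 14.7%. Among SWI/SNF subunits 9 of 28 had BRG1 alone, with DPF3, ACTL6A, SMARCC1 and ARID2 the strongest, 2 had Flag-actin alone, BCL7C and BCL7B, and 3 had both, PHF10, SMARCD2 and DPF1. Among subunits of INO80, SRCAP and TIP60, 14 of 32 had BRG1 alone, led by SRCAP and KAT5, 3 had Flag-actin alone, DMAP1, YY1 and TRRAP, and 1 had both, INO80C. Cell cycle genes had 13 of 39, 3 and 8, with CDK2, MKI67, MCM5 and CDC25A the strongest of the 8. Their share with both was 20.5% against 5.3% of all genes. Each antibody alone was also frequent in this list, with any BRG1 at 53.85% and any Flag-actin at 28.2%. For peaks above the median of their list these shares were 30.8% and 12.8%. E2F3 led those with BRG1 alone (99.38). Wnt targets and feedback genes had 10 of 26, 4 and 1, with TCF7L2 (99.76), MYC and RNF43 on the BRG1 side and NOTUM (93.41) and LEF1 on the Flag-actin side. TGF-beta pathway genes had 7 of 29, 3 and 2, and their 31.03% with any BRG1 and 17.2% with any Flag-actin were near the 31.1% and 14.7% of all genes. Replication-dependent histone genes had 24 of 69, 4 and 2, or 37.7% with any BRG1 and 8.70% with any Flag-actin.

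Genes of other tissues held BRG1 at fewer gene ends than Flag-actin. Over all genes the shares were 31.1% and 14.7%. Marker genes of neurons and liver held BRG1 at 3 of 29 (10.3%) and Flag-actin at 9 (31.03%). RBFOX3, a neuronal splicing factor gene, SLC32A1, SNAP25 and SLC17A7 were among those with Flag-actin alone. MAP2 held BRG1 alone (56.26 percentile). TUBB3 (97.36 for BRG1 and 97.84 for Flag-actin) and APOA1 (82.05 and 71.11) held both. Immune and fibroblast markers held BRG1 at 0 of 30 and Flag-actin at 6, led by CD68, FCGR3A, CSF1R and CD14. The 0 of 30 genes with BRG1 allow a share of up to 10.0% (3 counts). Skeletal and heart muscle markers held BRG1 at 3 of 30 and Flag-actin at 8. TNNI3 (94.16) and ACTA1 (91.03) were the strongest with Flag-actin alone, and MYL7 (58.90), MYH7 (53.43) and CKM (31.54) held BRG1 alone. Potassium channel genes stood at 13 and 24 of 83, and transcription factor genes of development, such as the TBX, FOX, SOX and GATA families, at 29 and 36 of 133, with TBX4 at the 99.97 percentile of the Flag-actin list. Without chromosomes 8, 16 and 17 the potassium channel genes stood at 11 and 19 of 70. These transcription factor genes then stood at 23 and 24 of 107, which nearly closed their difference. Keratin-associated protein genes, which serve hair and include close copies within subfamilies, stood at 6 and 15 of 94. At gene ends both maps were rare at olfactory receptor genes, 8 and 11 of 390, and at clustered protocadherin genes, 2 and 2 of 53. Intestinal transcription factors stood at 5 and 4 of 22. GRHL2, ELF3, SOX9 and GATA6 (19.64 percentile) were on the BRG1 side, and FOXA1, GATA4, FOXA3 and FOXA2 on the Flag-actin side. HOX genes stood at 14 and 9 of 39, keratin genes at 10 and 6 of 55, and ZNF genes at 120 and 44 of 509.

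**Figure D2:**
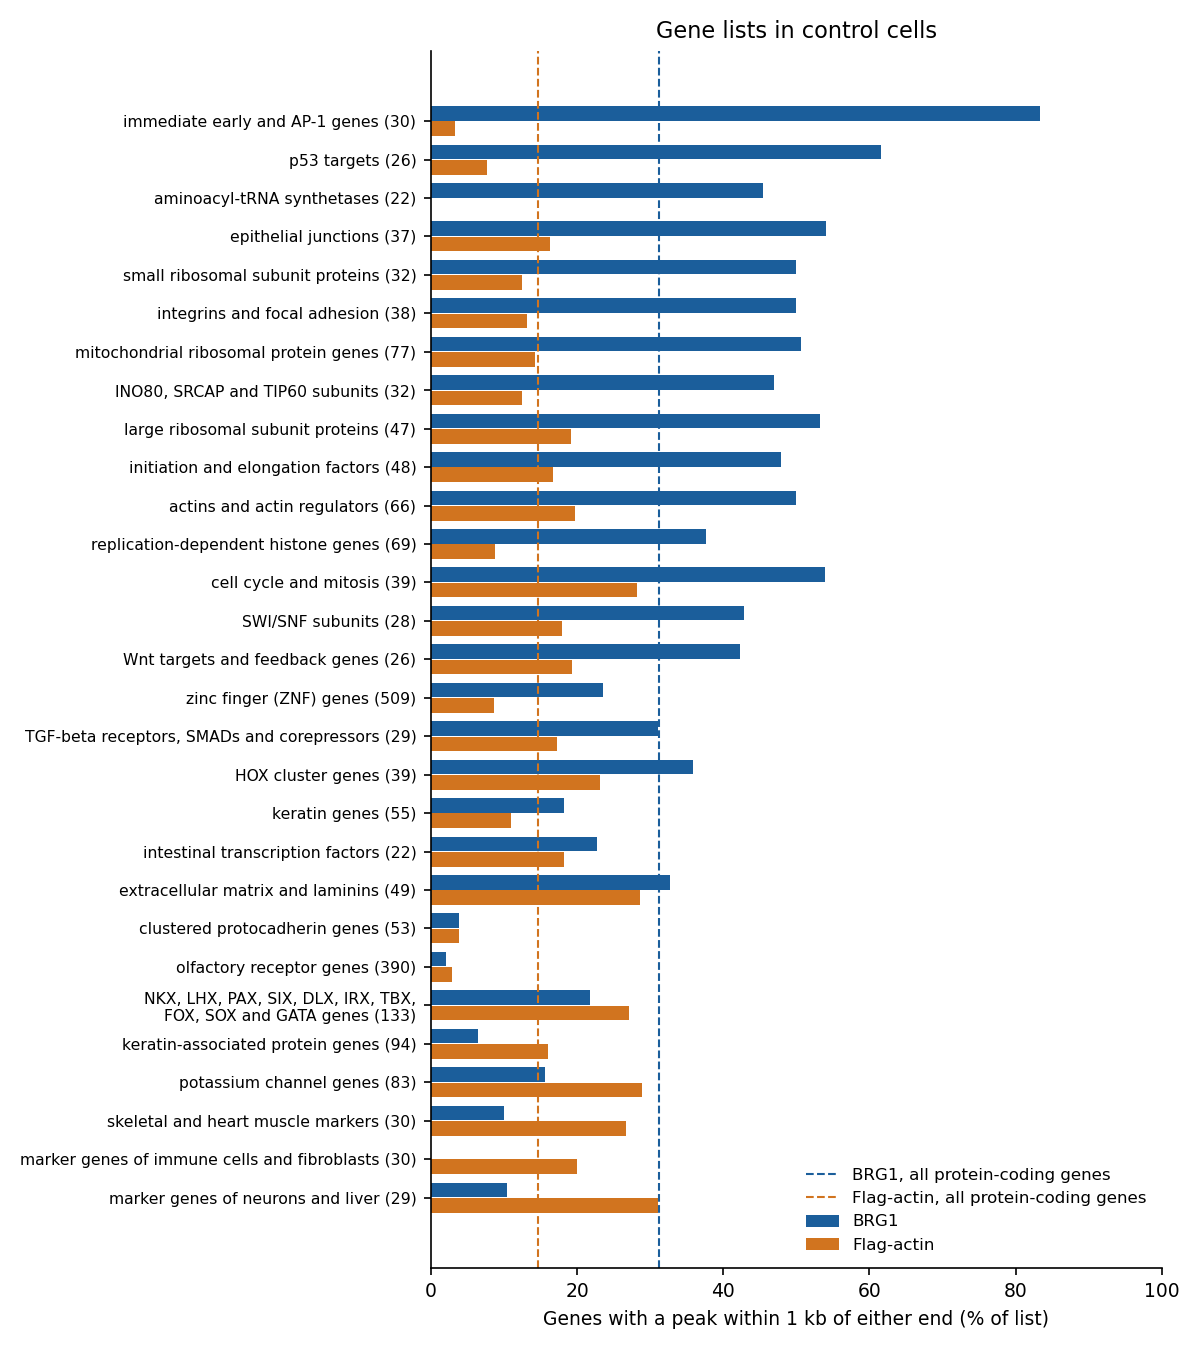
Share of genes of each list (number of genes in brackets) with a peak within 1 kb of either annotated end, for BRG1 (blue, upper bar) and Flag-actin (orange, lower bar), in % of the list. Dashed lines mark the shares of all 19974 protein-coding genes, 31.1% for BRG1 and 14.7% for Flag-actin. Immediate early genes stand at 83.3% and 3.33%, and markers of neurons and liver at 10.3% and 31.0%.

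Over whole genes the maps met more often. With the gene body and 1 kb around it as the window, 5245 genes had BRG1 alone (26.3%), 2601 Flag-actin alone (13%) and 4898 both (24.5%), or 50.8% with any BRG1 and 37.5% with any Flag-actin, so that 48.3% of the BRG1 genes held Flag-actin and 65.3% of the Flag-actin genes held BRG1. This window changed some of the gene lists. Clustered protocadherin genes, some of which lie within each other and share peaks, then held BRG1 at 16 and Flag-actin at 39 of 53 (30.2% and 73.6%). Markers of neurons and liver held them at 12 and 13 of 29, which nearly closed the difference seen at gene ends, markers of immune cells and fibroblasts at 8 and 15 of 30, and muscle markers at 12 and 14 of 30. Wnt targets and feedback genes held BRG1 at 18 and Flag-actin at 17 of 26, with both at 14, and intestinal transcription factors at 11 and 11 of 22. Immediate early genes kept a difference, at 27 and 4 of 30. The 5 genes with the most peaks of each antibody were different ones. PCDH7, a protocadherin gene of 426.4 kb, held 102 BRG1 peaks and 1 Flag-actin peak. NSMCE2, a SUMO ligase gene, held 72 and 5, RAD51B, a recombination gene, 53 and 7, VTI1A 50 and 8, and CUEDC1 42 and 7. On the other side GSE1, a gene of 506.7 kb, held 40 BRG1 and 104 Flag-actin peaks, RBFOX3 17 and 98, ZNF469 14 and 76, RPTOR, which encodes a subunit of the growth kinase complex mTORC1, 24 and 54, and TRAPPC9 25 and 48. Of the 5 genes with the most Flag-actin peaks, 2 each lie on chromosomes 16 and 17 and 1 on chromosome 8.

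Flag-actin was concentrated toward chromosome ends and BRG1 much less. In the outer 5 Mb of the chromosomes lay 11.01% of BRG1 peaks (interval 10.7 to 11.4) and 30.1% of Flag-actin peaks (29.6 to 30.7), against 8.365% and 10.45% of the IgG peaks of the BRG1 and Flag arms, 13.4% of protein-coding genes and 7.59% of the sequence. Flag-actin density was 48.9 peaks per Mb between 1 and 2 Mb from an end and 5.90 between 30 and 50 Mb. BRG1 stood at 20.1 and 10.9 peaks per Mb in the same zones, and the IgG lists at 10.6 and 8.12 in the BRG1 arm and 10.85 and 6.39 in the Flag arm. Genes were also denser there, at 14.3 and 6.555 per Mb. Of the gene classes, 8.10% of genes with BRG1 alone, 26.2% with Flag-actin alone and 24.5% with both lay in the outer 5 Mb. Without chromosomes 8, 16 and 17, a choice made after the values were seen, the outer shares of peaks were 9.05% for BRG1 and 25.3% for Flag-actin.

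By chromosome both maps were densest on 17, 19 and 16, relative to length. On chromosome 17 density was 2.51 times the average of its list for BRG1 and 4.04 times for Flag-actin, on chromosome 19 it was 2.16 and 2.78 times, and on chromosome 16 it was 1.39 and 2.46 times. The lowest for BRG1 were X (0.194 times), 13 (0.5055) and 18 (0.691), and for Flag-actin X (0.0763), 4 (0.4455) and 13 (0.484). The X chromosome held 2.15 BRG1 and 0.641 Flag-actin peaks per Mb, whereas the IgG lists held 6.06 there in the BRG1 arm and 4.095 in the Flag arm.

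**Figure D3:**
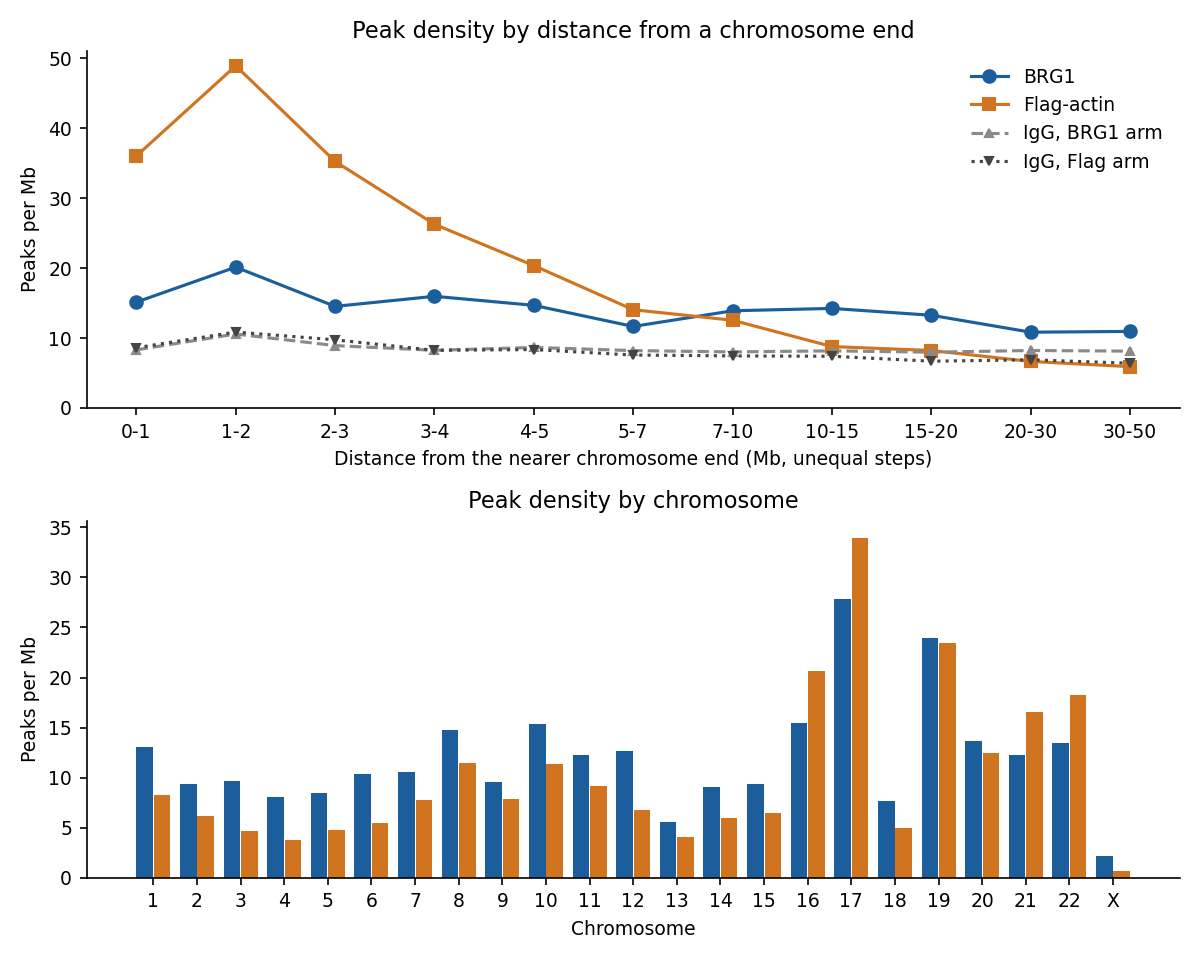
Peaks per Mb against the distance from the nearer chromosome end in Mb (top, in unequal steps, with both IgG lists in grey) and by chromosome (bottom) for BRG1 (blue) and Flag-actin (orange). Flag-actin reaches 48.9 peaks per Mb between 1 and 2 Mb from an end, where BRG1 stands at 20.1.

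In bins of 1 Mb the peak counts of the 2 maps were correlated, with a Spearman rho of 0.74 over 3043 bins, given as a description. Each also followed the number of genes in the bin, with 0.69 for BRG1 and 0.63 for Flag-actin. These bins share gene content and mappable length, and neighbouring bins are not independent. The densest Flag-actin bin, on chromosome 17 from 81000001 to 82000000, held 89 BRG1 and 301 Flag-actin peaks, against 12 IgG peaks of the BRG1 arm and 22 of the Flag arm. It holds 36 genes, among them ACTG1, P4HB, GCGR and NOTUM. The next, on chromosome 16 from 88000001 to 89000000, held 75 and 275 around ZNF469, PIEZO1 and CBFA2T3, and from 89000001 to 90000000, which holds RPL13 and TUBB3, 77 and 207. The densest BRG1 bin, on chromosome 8 from 125000001 to 126000000, with SQLE, WASHC5, NSMCE2 and TRIB1, held 160 BRG1 and 16 Flag-actin peaks. The 20 densest Flag-actin bins held 3.64% of BRG1 and 12.3% of Flag-actin peaks, and the 20 densest BRG1 bins 4.965% and 7.25%.

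**Figure D4:**
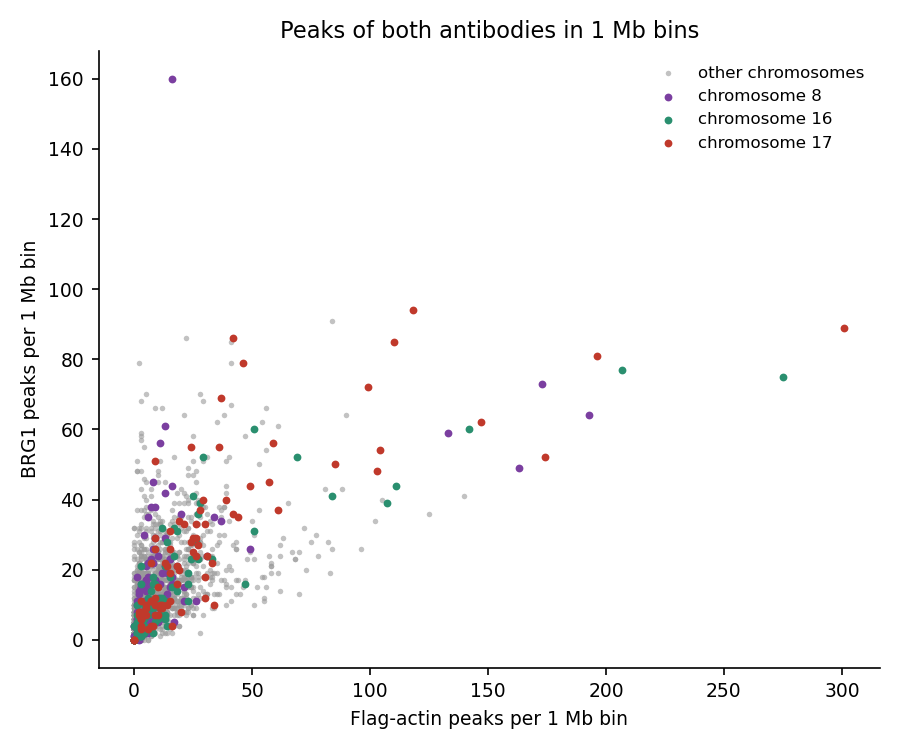
BRG1 peaks (y axis) against Flag-actin peaks (x axis) in each of 3043 bins of 1 Mb, with chromosomes 8, 16 and 17 in colour. The bin with 160 BRG1 peaks on chromosome 8 has 16 Flag-actin peaks, and the bins with over 200 Flag-actin peaks lie on chromosomes 16 and 17 and hold between 75 and 89 BRG1 peaks.

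The genes of the proteins themselves were checked as landmarks. ACTB (chromosome 7, 5527148 to 5530601) held 6 BRG1 and 5 Flag-actin peaks before the IgG filter and 1 and 0 after it, and each IgG list held 5 peaks there. ACTG1, the other cytoplasmic actin gene, lost no peak to the filter and held 5 BRG1 and 2 Flag-actin peaks. Its strongest BRG1 peak lay before its start (88.11 percentile) and its strongest Flag-actin gene-end peak near its stop (94.70). SMARCA4 held 2 BRG1 and 5 Flag-actin peaks inside the gene, and SMARCA2, the gene of the alternative SWI/SNF ATPase, 1 and 0, before and after the filter. SETD3 held 7 BRG1 and 2 Flag-actin peaks before the filter and 3 and 1 after it. The IgG list of the Flag arm held 8 peaks at SETD3 and that of the BRG1 arm 0. After the filter none of these 3 genes had a peak at an end.

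The libraries of SETD3 KO cells, 2 for each antibody, were not used to define the classes and show how far each class returned in another library. In the BRG1 lists, 9.88% of genes with BRG1 alone in the control held a gene-end peak in KO1 and 28.3% in KO2, against 1.71% and 5.99% of genes with Flag-actin alone, 10.01% and 27.8% of genes with both and 1.77% and 5.04% of genes with neither. In the Flag-actin lists the classes were closer: 4.535% and 9.225% of genes with BRG1 alone, 5.88% and 13.1% of genes with Flag-actin alone, 9.16% and 17.85% of genes with both and 3.105% and 6.33% of genes with neither held a peak in KO1 and KO2. With no IgG filter, which puts 1569 genes in the class with both, that class stood at 36.3% and 43.3% in the Flag-actin lists and at 33.01% and 47.8% in the BRG1 lists. Peak by peak, 7.23% and 13.6% of the BRG1 peaks outside Flag-actin returned in the BRG1 KO1 and KO2 lists, and 1.75% and 3.79% of the Flag-actin peaks outside BRG1 returned in the Flag-actin KO1 and KO2 lists. Flag-actin peaks common to both control maps returned in the Flag-actin lists at 19.3% in KO1 and 25.02% in KO2. BRG1 peaks common to both returned in the BRG1 lists at 5.30% in KO1 and 13.9% in KO2. In KO1 this share was below the 7.23% of the other BRG1 peaks (intervals 4.14 to 6.67 and 6.95 to 7.52). In KO2 it was close to their 13.6%. These intervals cover counting error only, so they do not decide if the subsets differ in either list. The common BRG1 peaks were also narrow more often, with 17.1% at most 50 bp wide against 3.14% of the other BRG1 peaks. The part of width in these shares was not tested. In the Flag-actin KO1 and KO2 lists the common BRG1 peaks returned at 18.85% and 24.8%, and the other BRG1 peaks at 1.6% and 2.53%. The common BRG1 peaks were chosen by their overlap with Flag-actin control peaks. Their shares therefore restate those of the common Flag-actin peaks and are no separate result. These libraries differ from the control in genotype, in list length (6789 and 12782 peaks for BRG1, 12105 and 18462 for Flag-actin after the same filter) and as separate preparations, and these cannot be told apart.

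**Figure D5:**
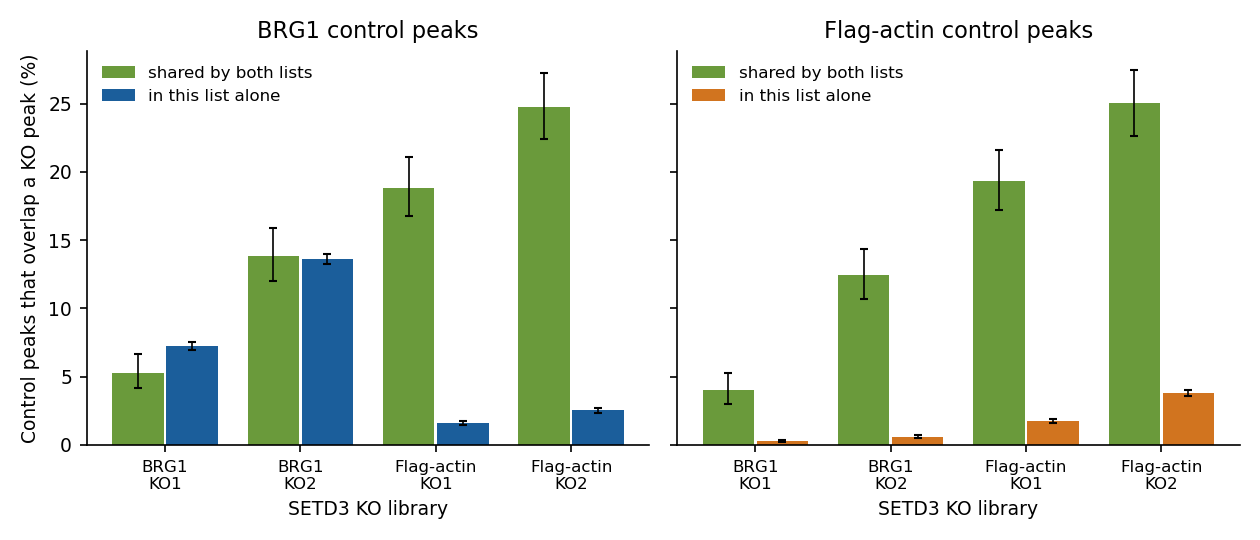
Share of control peaks that overlap a peak of each SETD3 KO list (y axis, in %), for BRG1 control peaks (left) and Flag-actin control peaks (right), split into peaks shared by both control maps (green) and peaks of one map alone (blue or orange). Bars show shares with exact 95% binomial intervals, and the 24197 Flag-actin peaks outside BRG1 return in 1.75% and 3.79% of cases in the Flag-actin KO1 and KO2 lists.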

How the data were processed

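CUT&RUN peak lists of HCT-116 control cells were compared, 1 for BRG1 and 1 for Flag-actin. Coordinates are hg38, per the submitters' processing notes. These also list SEACR, MACS2, BWA, bedtools (version 2.30.0), Trim Galore (version 0.4.5), deepTools, FastQC (version 0.12.0) and SAMtools, without saying how each was used. The deposited values are the total and the maximum signal of each peak, in the 6-column layout of SEACR, called per library. Their scaling and the read depth are not given in the sources used here. A numeric SEACR threshold, by the list names 0.01 for the antibodies and 0.005 for IgG, keeps a top fraction of signal blocks, so numbers of peaks do not measure binding, and signal was used only to rank peaks within a list. Maximum signals rose in steps of 4.38 for BRG1 and 21.5 for Flag-actin; if signal was scaled to depth, the Flag-actin library was the shallower, which was not tested.

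Of 53085 BRG1 and 38778 Flag-actin peaks on chromosomes 1 to 22 and X, 19489 and 13318 overlapped an IgG list by 1 bp and were dropped. Genes and promoters came from RefSeq GRCh38.p14 (19974 protein-coding genes, with a strand and a promoter for 15812). Starts, stops and promoters are not analysed here for the 715 genes of chromosome 8 and 3447 genes of other chromosomes without a strand. This left 4272 of the 5160 genes with BRG1 alone, 1378 of the 1871 with Flag-actin alone and 812 of the 1059 with both. The start and stop of a gene are its annotated ends by strand. Overlap counts used pandas 2.3.3, numpy 2.4.6 and scipy 1.17.1 under Python 3.11.15, and on simulated data they differed from bedtools 2.31.1 in 0 of 20000 intervals. No test was run.

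The 2 lists, the 29 gene lists and the rule for named genes were chosen with earlier results of these data known. The rule took the 10 strongest genes of each class, the 5 genes with the most peaks of each antibody, up to 4 genes per gene list and class, and 7 landmark genes; genes named in the 1 Mb bins, and PTPRN, were chosen after their values were seen. Of the lists, 19 are by symbol (660 entries, all matched) and 10 by symbol pattern, 1 of which was narrowed after values were seen to leave out unrelated symbols. Alternatives changed the window, the IgG filter, list length, signal, peak width and overlap.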

Additional observations from a re-analysis of the deposited data

How the results depend on the processing

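No paired analysis was possible because each antibody had 1 control library and no test was run. For the same reason no replicate could be left out. More genes had BRG1 alone than Flag-actin alone in 9 of 9 alternatives. The larger BRG1 share at gene ends held in 7 of 7, and the larger Flag-actin share near chromosome ends in 6 of 6. Starts outnumbered stops for each antibody in 6 of 6. The overlap share was larger for Flag-actin than for BRG1 in 7 of 8; in lists of equal length it was 3.98% for BRG1 and 3.93% for Flag-actin. Of the gene lists, the larger BRG1 count held in 1 of 4 alternatives for intestinal transcription factors, in 2 of 4 for extracellular matrix genes and in 3 of 4 for keratin genes.

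With no IgG filter the overlap was 26.3% of BRG1 and 35.9% of Flag-actin peaks. Gene ends then held 14.3% and 9.38%, the last 5 Mb 10.2% and 23.6%, starts 30.9% and 10.4% of genes, and stops 6.495% and 7.72%. Genes with BRG1 alone returned at 12.02% (BRG1 KO1), 30.1% (BRG1 KO2), 5.65% (Flag-actin KO1) and 10.8% (Flag-actin KO2), and genes with both at 33.0%, 47.8%, 36.3% and 43.3%. Filtered against its own arm's IgG alone, 20.1% of BRG1 peaks lay at gene ends. In lists of equal length BRG1 had 22.9% of peaks at gene ends, 26.1% of starts and 3.81% of stops. For peaks above the median of their list the overlap was 2.60% for BRG1 and 3.39% for Flag-actin, gene ends held 26.1% and 13.35%, the last 5 Mb 10.4% and 34.6%, starts 21.05% and 4.80% and stops 2.73% and 3.57%, with both at 414 genes. For peaks wider than 100 bp the overlap was 2.96% and 3.57%, and 22.15% of BRG1 peaks lay at gene ends.

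Without chromosomes 8, 16 and 17 the overlap was 3.19% and 4.56%, the last 5 Mb held 9.05% and 25.3%, BRG1 lay at 4.465% of stops, and Flag-actin had 11.7% of peaks at gene ends, 8.26% of starts and 5.62% of stops. Within 3 kb, gene ends held 28.2% and 23.4%, with both at 2404 genes, over whole genes both lay at 4898, and at starts alone 958 genes had Flag-actin alone and 447 both. Asking for an overlap of 50% of the shorter peak gave 3.06% and 4.01%, and a distance within 1 kb gave 9.07% and 11.7%. For peaks in the promoter window, CpG-rich shares were 91.2% with BRG1 alone and 88.6% with both. The cause of these moves was not tested. Depth was not given in the sources used here, so its limit cannot be stated.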
